A study of Drosophila melanogaster with 9 samples.

Results

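The genes described here are 10 genes of the Drosophila piRNA pathway, spn-E, tej, vas, aub, AGO3, armi, zuc, vret, piwi and mael, measured in eye imaginal discs. They were chosen by name, and all 10 were found among the 11983 genes tested, each with 1 probe set annotated to it alone, so the brightest set of each gene is also its only one. Another probe set (1631511_at) is annotated to both wwk and vas and enters no comparison. The study used 9 arrays of RNA from discs of larvae in the third instar. The adult eye develops from this epithelial disc of the larva. The control group carried w1118 with Gal4 (3 arrays), the PSC group carried w1118 with psc overexpression (3 arrays) and the mutant group carried the rbf1120a allele with Gal4 (3 arrays). Gal4 is not mentioned for the PSC group, and no label names the driver, the sex of the larvae or how many discs went into 1 array. The Psc protein belongs to the canonical Polycomb repressive complex, and Rbf1 is the main fly retinoblastoma protein, and the mutant allele used is known to lose its function only in part. Each group has a genotype label of its own, so genotype and other features of the flies used cannot be told apart.

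piRNAs are small RNAs that guide Argonaute proteins of the PIWI clade to transposon transcripts and keep transposons silent, above all in the gonads. Long precursor transcripts are cut into piRNAs at the surface of mitochondria, aub and AGO3 amplify them by slicing in the perinuclear nuage of germ cells, and piwi carries them into the nucleus, where it silences transposons at the level of chromatin. Most of these genes are known as germline genes with little or no role described in imaginal discs, while piwi, armi, zuc and vret also act in the somatic cells of the ovary. As background, proteins of the retinoblastoma family and the complexes they join are known to keep germline genes off in somatic cells of worms and flies.

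Values are log2 intensities made with RMA. Over the genes tested, array medians lay between 8.11 and 8.21. The altered genes were read first: Psc averaged 12.50 in the PSC group and 9.84 in control discs, and Rbf averaged 9.42 in the mutant and 9.78 in control discs, so an Rbf transcript was still detected in the mutant. All 9 measured eye disc markers (ey, so, eya, dac, gl, ato, elav, chp and ro) were above the background level given below on every array. Against control 0 of the 9 passed in limma in either altered group, where 10.2% (rbf1) and 3.8% (PSC) of all genes did. In the mutant their differences ran from -0.31 (ato, limma adjusted p = 0.0842) to 0.14. In PSC discs they ran from -0.60 (chp, limma adjusted p = 0.0947) to 0.28. Between the rbf1 and PSC groups 2 of the 9 were called, both lower in the mutant, beside 3.66% of all genes lower. They were ato at -0.52 (limma adjusted p = 0.00996) and dac at -0.49 (limma adjusted p = 0.0299). chp stood the other way at 0.505 without passing (limma adjusted p = 0.0927), and the median of the 9 was -0.04. The part of disc composition in the differences below was not tested. The dac call held in 4 of 9 fits with an array left out (without control 1, control 2, control 3 or PSC 3, adjusted p up to 0.102 in the others) and was lost with a covariate for salivary glue genes. Salivary glue genes varied inside the groups, with a mean over 6 genes from 6.52 to 13.10 over control, 9.53 to 12.24 over PSC and 6.40 to 11.75 over rbf1 arrays, and a fit with that mean as a covariate was run as an alternative.

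RMA gives no detection call, so each level was set beside 23 genes of seminal fluid and eggshell proteins, which have no known role in discs. Their mean levels ran from 3.23 to 7.59 with a median of 4.17, and their 90th percentile, 6.24, is called background here. Whether each of these genes is silent in discs was not tested. By their means over all 9 arrays, 5 of the 10 members (spn-E, vret, zuc, armi and mael) lay above 6.24, and tej, aub, piwi, AGO3 and vas lay below it. Against the most common low value of all genes, 4.05, 9 of the 10 lay above and vas alone lay below. Probe sets differ in brightness, so the level of 1 member is not compared with that of another.

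**Figure D1:**
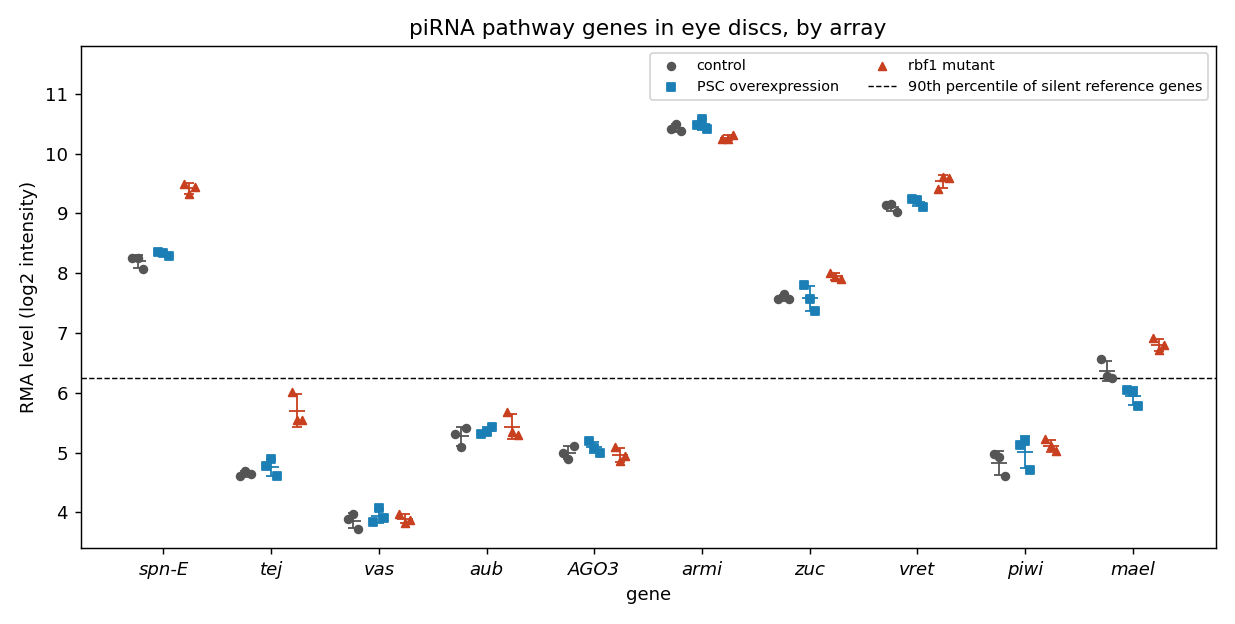
RMA level (log2 intensity) of each piRNA pathway gene on each of the 9 arrays, with points for arrays, short bars for group means and error bars for SD (n = 3); the dashed line is the 90th percentile of the silent reference genes, 6.24. The 3 rbf1 arrays stand clear of the other 6 for spn-E, tej, vret, zuc and mael, and all arrays of vas, aub, AGO3 and piwi lie under the line.

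In the rbf1 mutant 4 of the 10 genes rose against control and 0 fell: spn-E, tej, vret and mael. spn-E was 2.33-fold and tej 2.08-fold higher, and vret and mael rose by less than 0.5 on the log2 scale. Across all genes tested 10.2% passed in this comparison, 6.31% higher and 3.92% lower. The median difference of the 10 members was 0.322 on the log2 scale and that of all genes was -0.004. The 3 mutant arrays lay entirely above the 3 control arrays for 6 members (spn-E, tej, vret, mael, piwi and zuc) and entirely below them for armi, where 15.7% and 13.2% of all genes did so. The test was limma over all 9 arrays with p-values adjusted by Benjamini-Hochberg over the 11983 genes (threshold 0.05). With arrays centred on their medians, the calls over all genes were 559 higher and 603 lower in place of 756 and 470, and 3 of the members rose, without mael.

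Against control, discs that overexpressed PSC showed 0 of 10 members past the threshold in limma, with 1 (mael) at an unadjusted p under 0.05 and 0 by an unmoderated test. That unmoderated test called 37 of all 11983 genes. How many of all genes had an unadjusted p under 0.05 was not counted, so such counts here and below have no share beside them. The median difference of the members was 0.083. In this comparison 3.8% of all genes passed, 1.42% higher and 2.38% lower. PSC arrays lay entirely above control arrays for spn-E and entirely below them for mael, where 11.3% and 10.4% of all genes did so.

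The direct comparison of rbf1 mutant with PSC discs, which tests whether both effects differ since they share the control arrays, called 5 of the 10. spn-E, tej, vret and mael were higher in the mutant and armi was lower. Across all genes 10.6% passed, 6.91% higher and 3.66% lower. The mutant arrays lay entirely above the PSC arrays for these 4 genes and zuc, and entirely below them for armi, where 16.2% and 14.3% of all genes did so. With arrays centred on their medians the calls over all genes were 580 higher of 1328, in place of 828 of 1266.

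**Figure D2:**
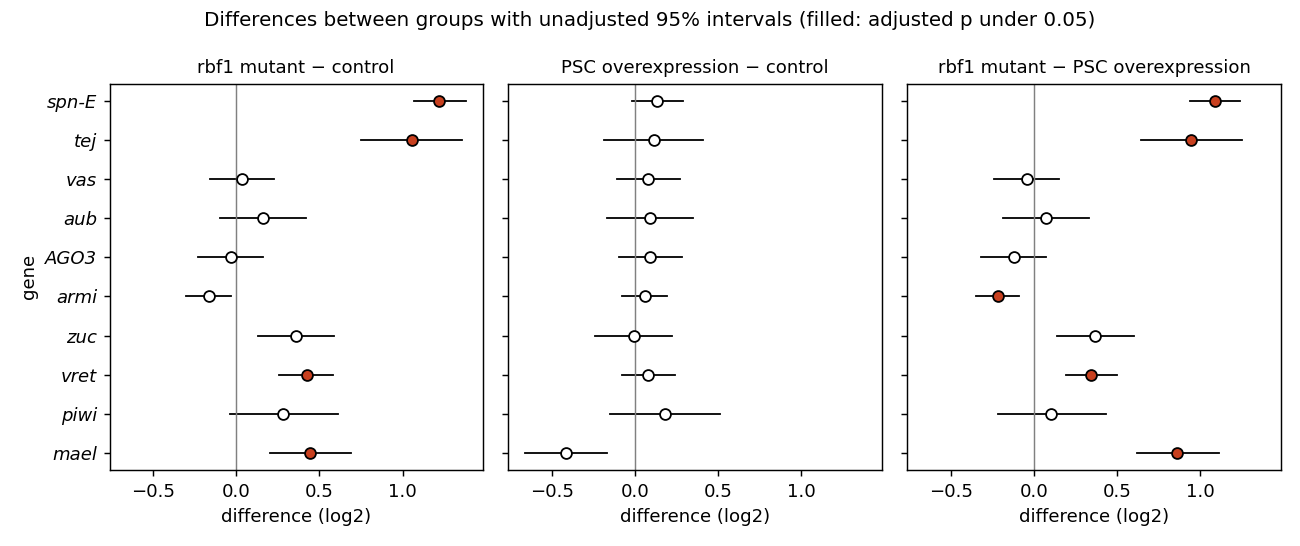
Differences between groups (log2) for the 10 genes in the 3 comparisons, as points with unadjusted 95% intervals, filled where the adjusted p from limma is under 0.05. The filled points are spn-E, tej, vret and mael on the left, none in the middle, and the same genes with armi on the right.

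Genes of the nuage and of piRNA amplification come first. spn-E encodes a DExH-box helicase with a Tudor domain that germ cells need for piRNA amplification. Its level (probe set 1636886_at) was 8.26, 8.26 and 8.07 in control 1 to 3, 8.35, 8.34 and 8.29 in PSC 1 to 3, and 9.49, 9.32 and 9.44 in rbf1 1 to 3. The mutant arrays lay more than 0.9 above the highest of the other 6, and PSC arrays sat just above control arrays. The rise against control was 1.22 (SE 0.067, limma adjusted p = 3.19e-05), and the difference from PSC discs was 1.09 (SE 0.067, limma adjusted p = 6.44e-05). PSC against control stood at 0.13, with a 95% interval from -0.02 to 0.29. Leaving out any 1 array kept the rise over control between 1.16 and 1.27, and it passed under all 18 alternatives run. Several of these cannot move the difference. For every member, leaving out a PSC array changes only the test of mutant against control.

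tej (tejas) encodes a Tudor-domain protein that works with spn-E and vas in the nuage. Its level (1638729_at) was 4.60, 4.69 and 4.64 in control, 4.77, 4.89 and 4.61 in PSC, and 6.02, 5.54 and 5.54 in rbf1 arrays. Control and PSC arrays overlapped and all mutant arrays were higher, with rbf1 1 the highest. All 9 values lay under 6.24, so the rise took place within the range of the silent reference genes, where RMA compresses differences. It measured 1.06 (SE 0.132, limma adjusted p = 0.00154), while the 23 reference genes themselves ran from -0.25 to 0.25 between mutant and control with 0 calls in limma and 3 at an unadjusted p under 0.05. The mutant was 0.94 above PSC discs (SE 0.132, limma adjusted p = 0.00285), and PSC stood 0.11 from control (95% interval -0.19 to 0.41). The rise over control passed without any 1 array, at 0.89 without rbf1 1 as its lowest, and was lost by the unmoderated test of the 6 arrays alone (adjusted p = 0.0596).

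vas (vasa), a DEAD-box helicase and the classic marker of fly germ cells, was dim in every group. Its own probe set (1636054_at) read 3.89, 3.97 and 3.72 in control, 3.84, 4.07 and 3.90 in PSC and 3.98, 3.83 and 3.87 in rbf1 arrays. The groups overlapped, and the set shared with wwk ran from 3.69 to 4.02. The mutant stood 0.04 from control (95% interval -0.16 to 0.23), with limma adjusted p = 0.85.

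aub (aubergine), the cytoplasmic PIWI-clade protein that slices transposon transcripts, read 5.31, 5.10 and 5.41 in control, 5.31, 5.34 and 5.43 in PSC and 5.67, 5.34 and 5.29 in rbf1 arrays. All groups overlapped, and rbf1 1 was the highest of the 9. The mutant stood 0.16 above control (95% interval -0.10 to 0.42, limma adjusted p = 0.45). AGO3, its partner in amplification, read 4.99, 4.89 and 5.11 in control, 5.19, 5.07 and 5.0 in PSC and 5.09, 4.86 and 4.94 in rbf1 arrays. Those groups overlapped too, and the mutant stood at -0.03 (95% interval -0.23 to 0.16, limma adjusted p = 0.863). All arrays of aub, AGO3 and vas lay under background, so these intervals describe the RMA values and do not bound a change in transcript.

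Of the genes of primary piRNA production, vret rose in the mutant against control, and zuc and armi did not pass. vret (vreteno) encodes a Tudor-domain protein that is needed to make primary piRNAs in germline and somatic cells of the ovary. Its level (1631021_at) was 9.14, 9.16 and 9.03 in control, 9.24, 9.22 and 9.11 in PSC and 9.41, 9.60 and 9.59 in rbf1 arrays. The mutant arrays were the 3 highest, and control and PSC arrays overlapped. The rise over control was 0.42 (SE 0.069, limma adjusted p = 0.00597). It passed without any 1 array (adjusted p up to 0.0284) and was lost by the unmoderated test (adjusted p = 0.0769). The mutant was 0.35 above PSC discs (SE 0.069, limma adjusted p = 0.015), a call lost without PSC 3, rbf1 2 or rbf1 3 (adjusted p up to 0.0615).

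zuc (zucchini), the endonuclease that cuts piRNA precursors, read 7.56, 7.65 and 7.56 in control, 7.80, 7.56 and 7.37 in PSC and 8.01, 7.93 and 7.90 in rbf1 arrays. The mutant arrays were higher than the other 6, and PSC arrays spread on both sides of control. The mutant was 0.36 above control (SE 0.099) with limma adjusted p = 0.0565 and 0.37 above PSC discs with adjusted p = 0.0511. Neither passed with all arrays. The first passed without PSC 1, without PSC 3 and by the unmoderated test, with adjusted p from 0.0168 to 0.159 over all alternatives.

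armi (armitage), an RNA helicase that brings precursors to the processing site, went the other way. Its level (1623907_at) was 10.41, 10.50 and 10.37 in control, 10.47, 10.58 and 10.41 in PSC and 10.25, 10.24 and 10.31 in rbf1 arrays. The mutant arrays were the 3 lowest. Against PSC discs armi was lower by -0.22 (SE 0.059, limma adjusted p = 0.0493), or 1.16-fold. That call held in 1 of 9 fits with an array left out, the one without PSC 3, and was lost with the glue gene covariate (adjusted p = 0.0906), with the replicate number as a block (0.0591), over all probe sets (0.0639) and by the unmoderated test (0.125). Against control it stood at -0.16 (limma adjusted p = 0.13).

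Of the nuclear effectors, piwi, the PIWI-clade protein that silences transposons in the nucleus, read 4.97, 4.92 and 4.60 in control, 5.12, 5.20 and 4.71 in PSC and 5.22, 5.11 and 5.02 in rbf1 arrays. Mutant arrays sat just above control arrays and overlapped PSC arrays. The difference from control, 0.28 (95% interval -0.04 to 0.61), did not pass (limma adjusted p = 0.283). All arrays of piwi lay under background, so this interval does not bound a change in transcript.

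mael (maelstrom), an HMG-box protein that acts in transcriptional silencing with piwi, lay above control in the mutant and, without passing, below it in PSC discs. Its level (1639178_s_at) was 6.56, 6.28 and 6.25 in control, 6.05, 6.01 and 5.78 in PSC and 6.91, 6.71 and 6.80 in rbf1 arrays. Without exception, mutant arrays lay above control arrays and PSC arrays below them, and all PSC values were under 6.24. The mutant rose over control by 0.45 (SE 0.107, limma adjusted p = 0.0343) and PSC stood at -0.42 (SE 0.107, limma adjusted p = 0.0836). The rise was lost in 6 of 9 fits with an array left out (control 2, control 3, PSC 2 or any 1 rbf1 array, adjusted p up to 0.113), with centred arrays (0.0642) and by the unmoderated test (0.15). With the replicate number as a block, PSC against control passed (adjusted p = 0.0402), as it did with the glue gene covariate (0.0115). The mutant was 0.86 above PSC discs (SE 0.107, limma adjusted p = 0.00159), and this difference passed under all 17 alternatives that gave a value. The suffix of this probe set marks probes that may match more than 1 transcript.

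Other genes of the pathway were read from a written list of 26, of which 24 were measured and arx and boot were not analysed here. In the rbf1 mutant 3 of the 24 rose against control and 1 fell, with a median of 0.158, beside 6.31% and 3.92% of all genes. shu (shutdown), a co-chaperone that helps load piRNAs, rose by 0.81 (SE 0.065, limma adjusted p = 0.000167), from 9.62, 9.54 and 9.59 in control to 10.42, 10.39 and 10.36 in rbf1 arrays. PSC arrays read 9.72, 9.47 and 9.58 and overlapped control. The rise of shu passed without any 1 array and under every other alternative run.

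qin, a Tudor and RING-domain protein that keeps amplification between aub and AGO3, rose by 0.54 (limma adjusted p = 0.0228) at levels from 4.89 to 5.07 in the mutant, under the background level. Its other probe set stood at -0.06, between 4.28 and 4.63. For qin the call was lost when control 2, control 3, rbf1 2 or rbf1 3 was left out (adjusted p up to 0.0814) and with the glue gene covariate. del (deadlock), which marks piRNA clusters with rhi in germline nuclei, rose by 0.45 (SE 0.094, limma adjusted p = 0.0184), from 8.45, 8.25 and 8.22 to 8.84, 8.86 and 8.58. The fits that left out control 2, control 3, rbf1 1 or rbf1 2 did not call it (adjusted p up to 0.072), nor did that with the glue gene covariate. nxf2, which works with Panx in transcriptional silencing, fell by 0.29 (SE 0.073, limma adjusted p = 0.0399), from 8.59, 8.73 and 8.52 to 8.42, 8.26 and 8.27. The call on nxf2 held in 3 of 9 fits with an array left out (adjusted p up to 0.13) and was lost with the glue gene covariate. Without control 2, and likewise with that covariate, shu was the 1 call of the list.

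The remaining 20 did not pass. Among them were krimp at -0.12, rhi at 0.30, cuff at 0.27, Panx at -0.08 and tud at 0.10. In PSC discs 0 of the 24 passed in limma, beside 3.8% of all genes, with 2 at an unadjusted p under 0.05 and 0 by the unmoderated test. The latter called 37 of all 11983 genes there. The median was -0.019. Between rbf1 mutant and PSC discs 4 of the 24 were higher in the mutant and 0 lower, beside 6.91% and 3.66% of all genes. They were shu at 0.80 (limma adjusted p = 0.000179), qin at 0.46 (adjusted p = 0.0402), Hen1, which methylates the ends of piRNAs and siRNAs, at 0.48 (adjusted p = 0.00744), and mino (minotaur), needed for piRNA production at mitochondria, at 0.20 (adjusted p = 0.0148). Hen1 stood at 8.55, 8.45 and 8.23 in control, 8.06, 8.13 and 8.07 in PSC and 8.66, 8.51 and 8.53 in rbf1 arrays, so PSC arrays were the 3 lowest. The call on qin held in 1 of 9 fits with an array left out, the one without PSC 2 (adjusted p up to 0.125), and was lost with the glue gene covariate, and that on mino in 6 of 9 (up to 0.0627), and with centred arrays 2 of the 4 calls were made.

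**Figure D3:**
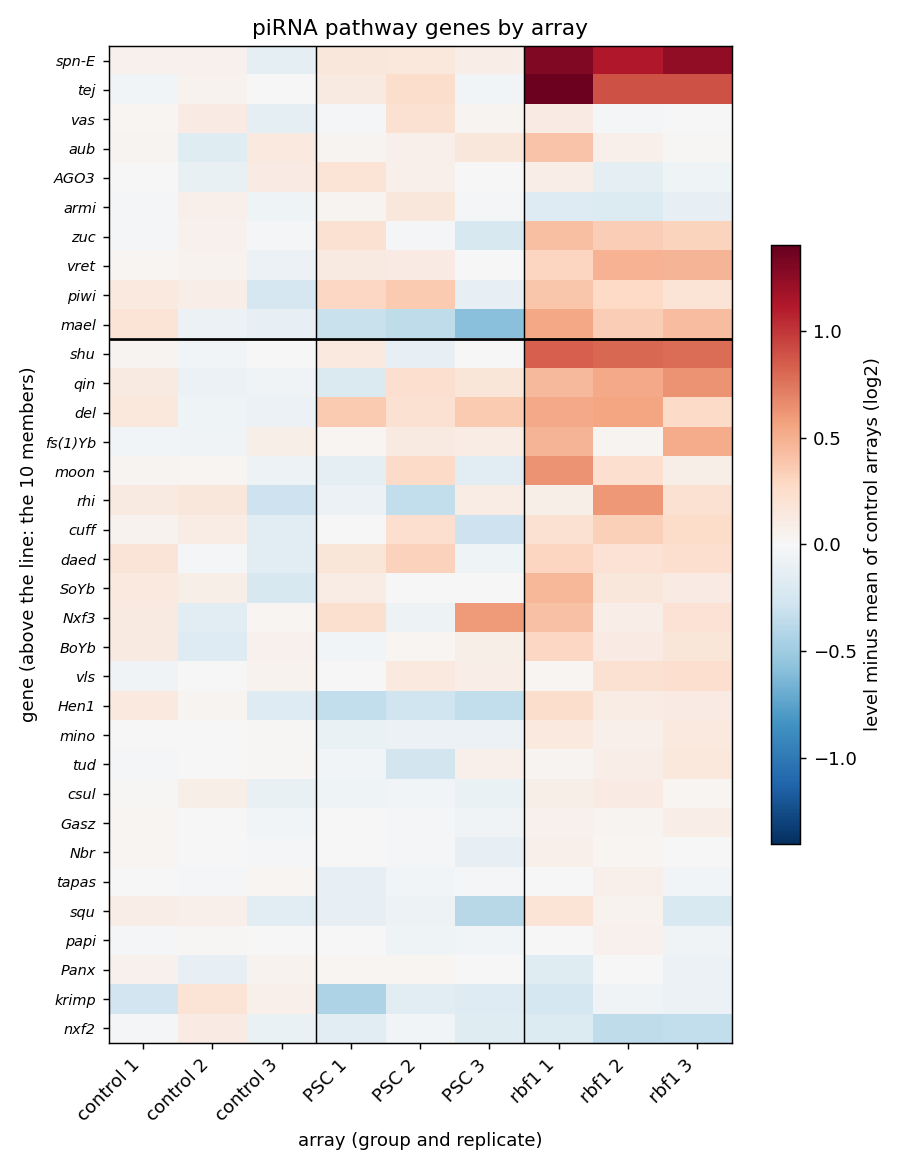
Level of each of the 34 measured piRNA pathway genes on each array, minus that gene's mean over the control arrays (log2, colour); the 10 members stand above the line and the other 24 genes below it, ordered by the mean of the rbf1 arrays. spn-E, tej and shu are dark in all 3 rbf1 arrays, and mael is blue in the PSC arrays and red in the rbf1 arrays.

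Markers of germ cells were read on the same arrays. Of 13 measured germ cell genes, 0 rose and 1 fell in the rbf1 mutant against control, beside 6.31% and 3.92% of all genes, with a median of -0.049. The member that fell was BicC, an RNA-binding translational regulator, at -0.20 (limma adjusted p = 0.0333), on values between 4.61 and 4.89. That call held in 1 of 9 fits with an array left out (adjusted p up to 0.106) and was lost with the glue gene covariate. nanos, the posterior and germ cell translation regulator, stood at 0.05 from a control mean of 4.03, zpg, the germline gap junction gene, at -0.12 from 4.23, osk at -0.07 from 4.07, bgcn at 0.11 from 6.07 and bam, which starts germ cell differentiation, at -0.22 from 6.0. The means of nanos, zpg, osk and bgcn lay under 6.24 in every group, and that of bam did in control and rbf1 discs (6.27 in PSC discs). bam was lower in the mutant than in PSC discs by -0.49 (limma adjusted p = 0.0346), a call that held in 2 of 9 fits with an array left out. In PSC against control 0 of the 13 passed in limma, beside 3.8% of all genes, with 1 at an unadjusted p under 0.05 and 0 by the unmoderated test. The latter called 37 of all 11983 genes there.

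The summed linear intensity of the 13 germ cell genes ran from 7134 to 7248 over control, 6628 to 6981 over PSC and 6670 to 7252 over rbf1 arrays, of which ovo alone made up 71.4% to 74.2%, and 3 or 4 of the 13 were above background on any array. ovo, gcl and Rbp9 were above background in all groups, and ovo also acts in the epidermis and Rbp9 in neurons. Without these 3, the sum of the other 10 ran from 317.5 to 345.6 over control, 328.9 to 338.8 over PSC and 314.4 to 328.6 over rbf1 arrays. The control range overlapped both others, and the rbf1 arrays lay just below the PSC arrays. In whole discs, more cells with a transcript and more transcript per cell cannot be told apart. Of 4 measured genes of the gonadal soma (tj, zfh1, upd1 and hh), 0 passed in any of the 3 comparisons in limma, where 3.8% to 10.6% of all genes did. There was 1 at an unadjusted p under 0.05, in PSC against control. The unmoderated test called 0 of the 4, and from 37 to 608 of all 11983 genes by comparison. tj, which defines those cells, had means from 4.73 to 4.83, under background.

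**Figure D4:**
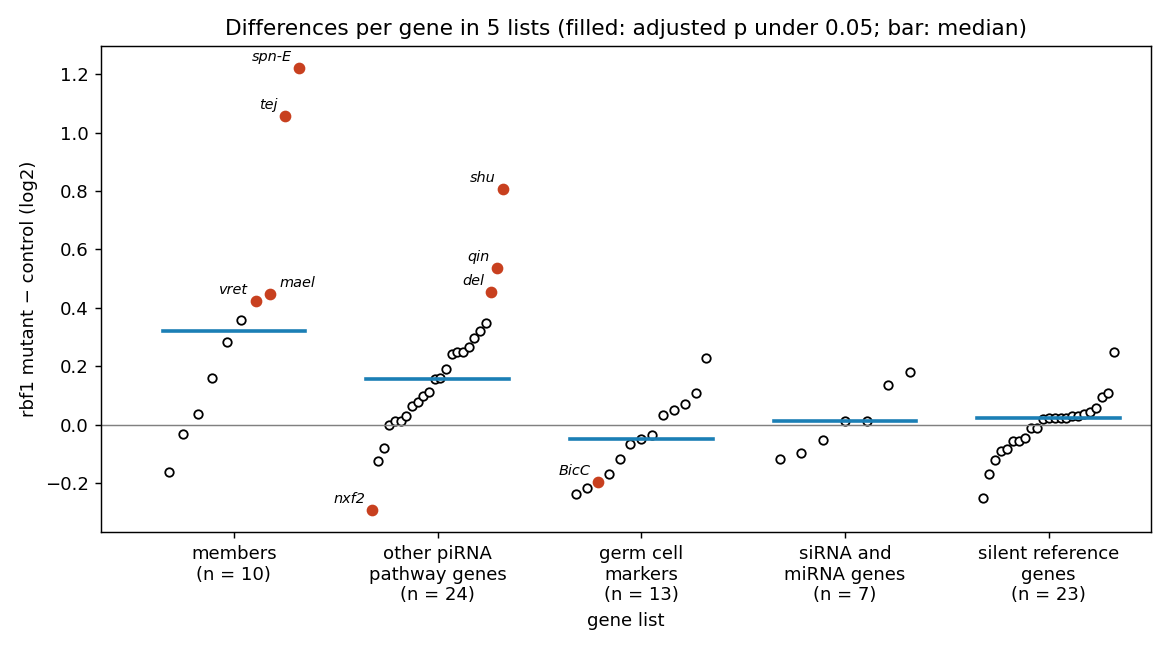
Difference between rbf1 mutant and control (log2) for each gene of 5 lists, ordered within each list, filled and named where the adjusted p from limma is under 0.05, with a bar at the median of the list. The medians are 0.322 for the members, 0.158 for the other piRNA pathway genes, -0.049 for germ cell markers, 0.011 for siRNA and miRNA genes and 0.022 for the silent reference genes.

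The other small RNA pathways of the fly share the Argonaute principle but work in all tissues. AGO1, AGO2 and Dcr-1 were on the written list but had no probe set used here. Of 7 measured genes of siRNA and miRNA production and action (Dcr-2, loqs, r2d2, gw, drosha, pasha and Ranbp21), 0 passed in any of the 3 comparisons in limma, where 3.8% to 10.6% of all genes did. At an unadjusted p under 0.05 there were 2 in rbf1 against control, 0 in PSC against control and 1 between the altered groups, and the unmoderated test called 0. The share of all genes at that unadjusted threshold was not counted. Their differences between mutant and control ran from -0.12 to 0.18. Among 11 testis meiotic arrest genes, another germline group, topi rose by 0.76, tomb by 0.51 and achi by 0.65 in the mutant and Taf12L fell by 0.69 (limma adjusted p from 0.00194 to 0.0129), beside 6.31% of all genes higher and 3.92% lower. topi and tomb lay under background on every array, topi did not pass when rbf1 2 was left out (adjusted p = 0.0518), and the other probe set of Taf12L stood at -0.03 (adjusted p = 0.93). The unmoderated test called 0 of the 44 genes of the germ cell, gonadal soma, small RNA, eye disc and testis lists in any comparison. Of all 11983 genes it called 481 in rbf1 against control, 37 in PSC against control and 608 between the altered groups.

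For the 4 members that rose, the 3 genes with the most similar levels over the 9 arrays were found by Pearson correlation among all genes, as a description over arrays that share their groups. For spn-E they were WRNexo, an exonuclease gene, Mcm10, which acts at replication initiation, and CG7730, each with r = 0.995. Their differences between mutant and control were 1.74, 1.44 and 1.93. For tej they were PolE4, a DNA polymerase epsilon subunit gene, Pms2, a mismatch repair gene, and Ugt305A1, each with r = 0.98 and differences of 0.93, 0.65 and 1.21. For vret they were Rbf2, the other fly retinoblastoma gene (r = 0.981), Dph5 (0.976) and ppk8 (0.975), with differences of 0.94, 0.31 and 0.83. These 9 genes all passed in the mutant against control, where 10.2% of all genes did, and their PSC differences ran from 0.04 to 0.29. They were picked for likeness to called members on the same arrays, so these calls follow largely from the choice and are no separate result. For mael they were CG5645 (r = 0.987), Taz (0.979) and Cul6 (0.974), none of which passed in the mutant. Among the 4 members themselves, r was 0.964 between spn-E and tej and 0.932 between spn-E and vret, and 0.709 between vret and mael.

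The genes next to each member were read to see whether neighbours moved with them, with the order taken from RefSeq (Release 6 plus ISO1 MT). Beside spn-E, the overlapping gene Pbp45 stood at 0.03 in the mutant against control (limma adjusted p = 0.8), and cv-d on the other side rose by 0.34 (adjusted p = 0.0462). The neighbours of tej, Ih and Shrm, stood at 0.02 and -0.02 without passing. Beside vret, the overlapping CG6985 stood at 0.27 (limma adjusted p = 0.165) and HP1c at 0.14 (0.182). The 4 genes that overlap or flank mael (CG14451, CG14450, CG32452 and CG11367) lay between -0.10 and 0.07 in the mutant, and between -0.04 and 0.03 in PSC discs. Between piwi and aub lies CG12253, which rose by 0.29 (limma adjusted p = 0.0204), while both PIWI-clade genes beside it did not pass. Beside vas, wwk was lower in PSC discs than in control by -0.42 (limma adjusted p = 0.0411) and higher in the mutant than in PSC discs by 0.46 (limma adjusted p = 0.0132), where vas did not pass in either comparison. Where genes overlap, which of them the probes read was not analysed here.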

How the data were processed

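The deposited table holds log2 intensities per probe set from Affymetrix Drosophila Genome 2.0 arrays, which the authors made with RMA, per the submitters' processing notes (version not given in the sources used here). RMA corrects background, normalizes between arrays and summarises probes, and it compresses differences near background. No further normalization was applied. Of 18952 probe sets, 183 controls, 402 annotated to several genes and 4720 annotated to none were left out. The other 13647 gave 11983 genes, each read at its brightest set (highest 9-array mean). Symbols came from RefSeq by identifier (11894 matched), and otherwise from the platform annotation, as for vas.

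Groups were compared with limma 3.58.1 in R 4.3.3 (group means over all 9 arrays, eBayes defaults, Benjamini-Hochberg over all 11983 genes, threshold 0.05, no fold minimum), tested on simulated data. Figures used matplotlib 3.10.9. There were 3 arrays per group, labelled as biological replicates, and their number limits the precision. The members, the written lists and the alternatives were chosen with earlier results of these data known. Named were all members, listed genes past the threshold (at most 8 per list), nanos, bam, bgcn, zpg and osk, and the 3 genes most like each called member. Neighbouring genes and members of lists given as examples without a call were named after values were seen.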

Additional observations from a re-analysis of the deposited data

Results flagged for a closer look

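For 5 of the 10 genes the effects of the altered genotypes against the shared control differed, by the direct limma test of rbf1 mutant against PSC discs, which 10.6% of all genes passed. The difference was 1.09 for spn-E, 0.94 for tej and 0.35 for vret, for which the mutant rose over control and PSC discs did not pass. The vret call was lost in 3 of 9 fits with an array left out. It was 0.86 for mael, whose levels lay above all control arrays in the 3 mutant arrays and below all of them in the 3 PSC arrays. It was -0.22 for armi, for which neither genotype passed against control, and that call (adjusted p = 0.0493) was lost in 8 of 9 fits with an array left out and under 4 other alternatives. Array 1 of the rbf1 group gave the highest value of the 9 for tej, aub, mael, zuc, spn-E and piwi. The part of disc composition or of a single array in these differences was not tested beyond the fits that leave an array out.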

How the results depend on the processing

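The differences of spn-E between the mutant and both other groups, and the mael difference between rbf1 and PSC discs passed under every alternative that gave a value. For the rbf1 mutant against control, 4 members passed with all arrays, 3 to 5 with an array left out, 2 of the 3 that remained among genes above the median level, and 2 by the unmoderated test (spn-E and zuc). Of the other piRNA genes 4 passed, 1 to 4 with an array left out, 1 by the unmoderated test and 1 with the glue gene covariate. Of all 11983 genes 1226 passed in this comparison with all arrays, and 787 to 1199 with an array left out. The unmoderated test called 481 and the fit with the glue gene covariate 882. Among the 5991 genes above the median level 1086 passed. For PSC against control 0 members passed, 0 with any array left out, and 1 (mael, lower) with the replicate block or the glue gene covariate. Of the other piRNA genes 0 or 1 passed with an array left out. Of all 11983 genes 455 passed here with all arrays and 250 to 389 with an array left out. With the replicate block 426 passed, and with the glue gene covariate 381. For rbf1 against PSC discs 5 members passed, 3 to 5 with an array left out, 3 among genes above the median level and 2 by the unmoderated test (spn-E and mael). Of the other piRNA genes 4 passed, 2 to 4 with an array left out and 2 with centred arrays. Of all 11983 genes 1266 passed here with all arrays, 843 to 1288 with an array left out and 1328 with centred arrays. The unmoderated test called 608, and 1026 of the 5991 genes above the median level passed. The cause of these moves was not tested. Signs turned only for members that passed in no comparison concerned: AGO3 in rbf1 against control (0.019 with quantile normalization, -0.097 to 0.025 with an array left out), vas (-0.006 with centred arrays, -0.033 to 0.089 with an array left out), and zuc in PSC against control (0.01 with centred arrays, 0.028 with quantile normalization, -0.121 to 0.095 with an array left out). Between rbf1 and PSC discs the ranges with an array left out were -0.046 to 0.144 for aub, -0.047 to 0.198 for piwi and -0.093 to 0.024 for vas. Same-numbered arrays correlated between -0.438 and 0.588 in their deviations, 4 of 9 pairs above 0.1, so numbers were not taken as pairs. The replicate block ended the armi call, made that of zuc in rbf1 against PSC discs (adjusted p = 0.047) and moved no other member's call but that of mael. Members above background numbered 5, or 9 against the most common low value.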

Other observations

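exu, a maternal RNA localization gene on the germ cell list, has a second probe set that was lower in the rbf1 mutant than in control by -0.49 (limma adjusted p = 0.0023, fit over all probe sets), where its brighter set stood at -0.24 without passing. Values of the second set ran from 5.03 to 5.67. This set was singled out after its values were seen.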
